A study of Brachypodium distachyon with 89 samples.

Results

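The change from dusk to midnight was followed in plants under normal growth (NG), in 12 of the 89 libraries used here. Dusk was ZT16, the end of the light period, and midnight was ZT20, the middle of the dark period, where ZT counts hours from lights on. The libraries fell into 4 groups of 3, Bd21 at ZT16 and ZT20 and Bd21-3 at ZT16 and ZT20, and the members described are the genes that changed in the same direction in both ecotypes. Bd21 and Bd21-3 are closely related inbred lines of *Brachypodium distachyon*, a small temperate grass used as a model for cereals, and the study took Bd21 as the line sensitive to submergence and Bd21-3 as the tolerant one. NG plants were 14 days old and stayed at 150 µE m-2 s-1 with 16 h of light and 8 h of dark. The study also held plants in dry tanks at low light (LL) and under water (S). By its methods LL and S plants received the same light, which was lower than that of NG plants. Each library was made from the aboveground tissue of 5 pooled plants, so a change in RNA per cell and a change in the share of a cell type cannot be told apart, and plants of different times were different plants.

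In grasses as in other plants, the circadian clock is a loop of transcription factors that peak in turn. The MYB factors LHY and the REVEILLE (RVE) proteins act around dawn, the pseudo-response regulators (PRR) follow one another from morning to evening, and GIGANTEA (GI) with the blue-light F-box protein FKF1 acts towards the end of the day. Chlorophyll a/b-binding antenna proteins, which gather light for the photosystems, are classic daytime outputs of this clock and of light. In the dark the leaf lives on starch stored during the day, and trehalose 6-phosphate synthase (TPS) family genes and the sugar-sensing kinase SnRK1 belong to the machinery that reads sugar supply.

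The 12 NG libraries held 6347119 to 14421211 reads, with a median of 8966505. Values are read counts scaled to library size by the authors (CPM). Tests were limma fits of log2(CPM + 1), so a log2 difference understates the change of genes at a few CPM. A gene was called a differentially expressed gene (DEG) where the absolute log2 difference was at least 1.5, the Benjamini-Hochberg adjusted p was under 5e-06 and the mean reached 15 CPM in 1 of the groups compared. Gene symbols are those of the best Arabidopsis match in the authors' table, and the roles given are those of the Arabidopsis genes. Antenna and receptor kinase genes come in near-identical copies between which reads may have been divided, and the library kit did not mark strand, so reads from overlapping antisense genes cannot be separated.

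A pair of libraries stood apart from the others of their group. Bd21-3 ZT20 replicate 2 had the lowest sum of scaled values (936344 CPM), and its 9 green leaf markers summed to 24860 CPM against 39510 and 38255 CPM in the other two. Bd21 ZT16 replicate 2 had 5618 CPM over 59 genes whose best match is a plastid-encoded gene, against 200 and 190 CPM in the other two. In the remaining NG libraries of both times those genes summed to between 196 and 715 CPM. Departures were not limited to this pair. Green leaf markers summed to 32384 CPM in Bd21 ZT20 replicate 1, against 42917 and 43133 CPM in replicates 2 and 3. In Bd21 ZT16 replicate 1 they summed to 30764 CPM, against 41064 and 37133 CPM. The lowest correlation between libraries of a group was that of Bd21 ZT20 replicates 1 and 3 (r = 0.977). Green leaf markers were high in all 12 libraries (24860 to 45782 CPM), as the labelled green tissue should have them, and guard cell markers (102 to 141 CPM), xylem and phloem markers (840 to 1493 CPM) and shoot meristem markers (23.7 to 47.5 CPM) had none of their 15, 8 and 5 genes at 0 in all 3 libraries of a group. No gene matched the root marker list. The main counts, the antenna genes and the lists whose medians moved with either library are given with and without it.

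Between dusk and midnight 31 genes rose and 21 fell in Bd21, which is 0.129% and 0.0871% of the 24109 genes tested (0.216% in either direction). In Bd21-3, 41 genes rose (0.170%) and 46 fell (0.191%), or 0.361% in either direction. Both ecotypes shared 17 genes that rose (0.0705%) and 18 that fell (0.0747%), or 0.145% in all, and no gene was called in opposite directions. In each of the 35 shared genes the 3 libraries of ZT16 and the 3 of ZT20 did not overlap, in either ecotype. The genes were chosen for a large change between these same libraries, so this separation describes them and is not further evidence. The same holds wherever separate groups are reported for a single shared gene. The share of all genes tested without such overlap is not given here. The risen genes had log2 differences of 1.52 to 3.15 in Bd21 and 1.55 to 4.04 in Bd21-3, with medians of 2.04 in both. The fallen genes ranged from -4.48 to -1.67 in Bd21 and from -4.40 to -1.78 in Bd21-3, with medians of -2.70 and -2.83, while the medians over all genes tested were -0.0017 and 0. Without any 1 of the 12 NG libraries, 21 of the 35 (9 risen, 12 fallen) were still called in both ecotypes, and all 35 kept their sign in every such fit. With both libraries that stood apart left out, an alternative chosen after seeing the data, 13 risen and 12 fallen genes remained called, while the count of fallen genes in Bd21-3 went from 46 to 28 and that of risen genes in Bd21 from 31 to 20.

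**Figure D1:**
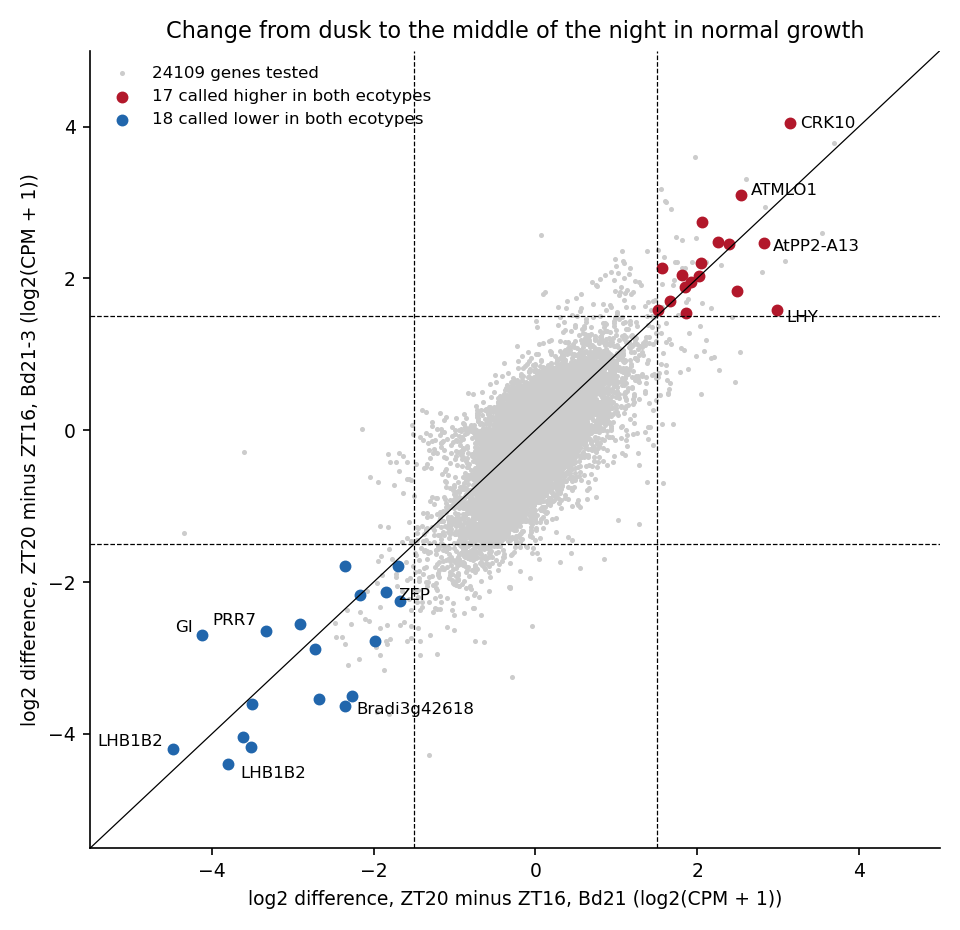
Log2 difference between ZT20 and ZT16 under normal growth, on the log2(CPM + 1) scale, in Bd21 (x axis) and Bd21-3 (y axis) for each of the 24109 genes tested (grey), with the genes called in both ecotypes in red (17 higher) and blue (18 lower). Dashed lines stand at 1.5 and -1.5, the solid line marks equal change, and the coloured genes lie in the upper right and lower left corners.

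Genes of the light-harvesting antenna were among the steepest falls. LHB1B2 codes for a major antenna protein of photosystem II, and both of its Brachypodium copies fell. In Bd21 the copy Bradi2g16290 had 1658, 1716 and 1858 CPM at ZT16 and 61.7, 92.2 and 80.3 CPM at ZT20. In Bd21-3 it had 4645, 3977 and 4432 CPM at dusk and 313, 112 and 370 CPM at midnight. Every midnight library was far below every dusk library of its ecotype, and the low value of 112 CPM belonged to the Bd21-3 library that stood apart. The log2 differences were -4.48 ± 0.40 (SE, adjusted p = 1.3e-13) in Bd21 and -4.20 ± 0.40 (adjusted p = 1.0e-12) in Bd21-3.

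The other LHB1B2 copy, Bradi4g37210, followed the same course. It went from 2100, 2608 and 2632 CPM to 148, 195 and 182 CPM in Bd21. In Bd21-3 it went from 6766, 5742 and 6776 CPM to 379, 168 and 434 CPM. The groups were again separate, with log2 differences of -3.80 ± 0.38 (SE, adjusted p = 7.8e-12) and -4.40 ± 0.38 (adjusted p = 3.1e-14). LHCB2 (Bradi1g15290), another major photosystem II antenna gene, fell from 1590 ± 167 to 141 ± 29.1 CPM (SD, n = 3) in Bd21 and from 3531 ± 419 to 318 ± 151 CPM in Bd21-3, by -3.50 and -3.61 on the log2 scale. CAB4 (Bradi4g30060), an antenna gene of photosystem I, fell from 145 ± 19.9 to 11.8 ± 1.67 CPM in Bd21 and from 397 ± 35.2 to 24.0 ± 12.8 CPM in Bd21-3, by -3.51 and -4.17. These 4 genes stayed called in both ecotypes whichever NG library was left out.

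LHCB3 (Bradi1g24760), part of the photosystem II antenna trimers, and LHCB5 (Bradi4g21170), a minor antenna linking trimers to the core, complete the antenna genes shared by both ecotypes. LHCB3 had 710, 759 and 903 CPM at dusk and 86.6, 143 and 149 CPM at midnight in Bd21, and 2520, 1981 and 2220 CPM against 236, 114 and 257 CPM in Bd21-3. LHCB5 had 1593, 1737 and 1813 CPM against 354, 525 and 433 CPM in Bd21, and 3161, 2713 and 2965 CPM against 537, 248 and 591 CPM in Bd21-3. Neither gene's groups overlapped. The log2 differences were -2.67 and -3.54 for LHCB3 and -1.99 and -2.78 for LHCB5. Both sat close to the limit on p in Bd21 (adjusted p = 4.6e-06 and 1.5e-06), and leaving out NG libraries in turn raised the adjusted p there to at most 2.8e-04 for LHCB3 and 8.7e-05 for LHCB5, so that 10 and 6 of the 12 removals ended the shared call.

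Within the photosystems the calls lay among the antenna genes. Of 55 genes tested in the list of photosystem and antenna genes, 6 fell in Bd21, 12 in Bd21-3 and the same 6 in both, and none rose. When the list was divided by annotation, after its values had been seen, all 17 antenna genes lay below 0 in both ecotypes, with medians of -1.92 in Bd21 and -3.01 in Bd21-3, and the 6 and 12 DEGs were all among them. The 30 other nuclear genes of the list had medians of -0.34 and -0.99 and no DEG. Most of them also lay below 0, 24 in Bd21 and 29 in Bd21-3, down to -1.09 and -2.21. The green leaf sum of the Bd21-3 library that stood apart was low in the same direction, and without that library the antenna median of Bd21-3 was -2.64 with 9 DEGs. Without Bd21 ZT16 replicate 2, 4 antenna genes fell in Bd21 in place of 6. The 8 genes of the list with plastid-encoded matches had a median of -1.29 in Bd21, which became 0.13 without the library rich in such reads.

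Summed over the 17 antenna genes, Bd21 had 15638, 17640 and 18933 CPM at ZT16 and 3170, 4886 and 4732 CPM at ZT20. Bd21-3 had 40047, 34625 and 38038 CPM at ZT16 and 6010, 2959 and 6403 CPM at ZT20. The dusk sums of Bd21-3 lay above all dusk sums of Bd21, whereas the midnight sums of the ecotypes overlapped. At ZT8 the mean sum had been 54392 ± 3302 CPM (SD, n = 3) in Bd21, and at ZT24 it was 15245 ± 1935 CPM. In Bd21-3 it was 76116 ± 12807 CPM at ZT8 and 9853 ± 1303 CPM at ZT24, below its dusk mean of 37570 ± 2741 CPM.

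**Figure D2:**
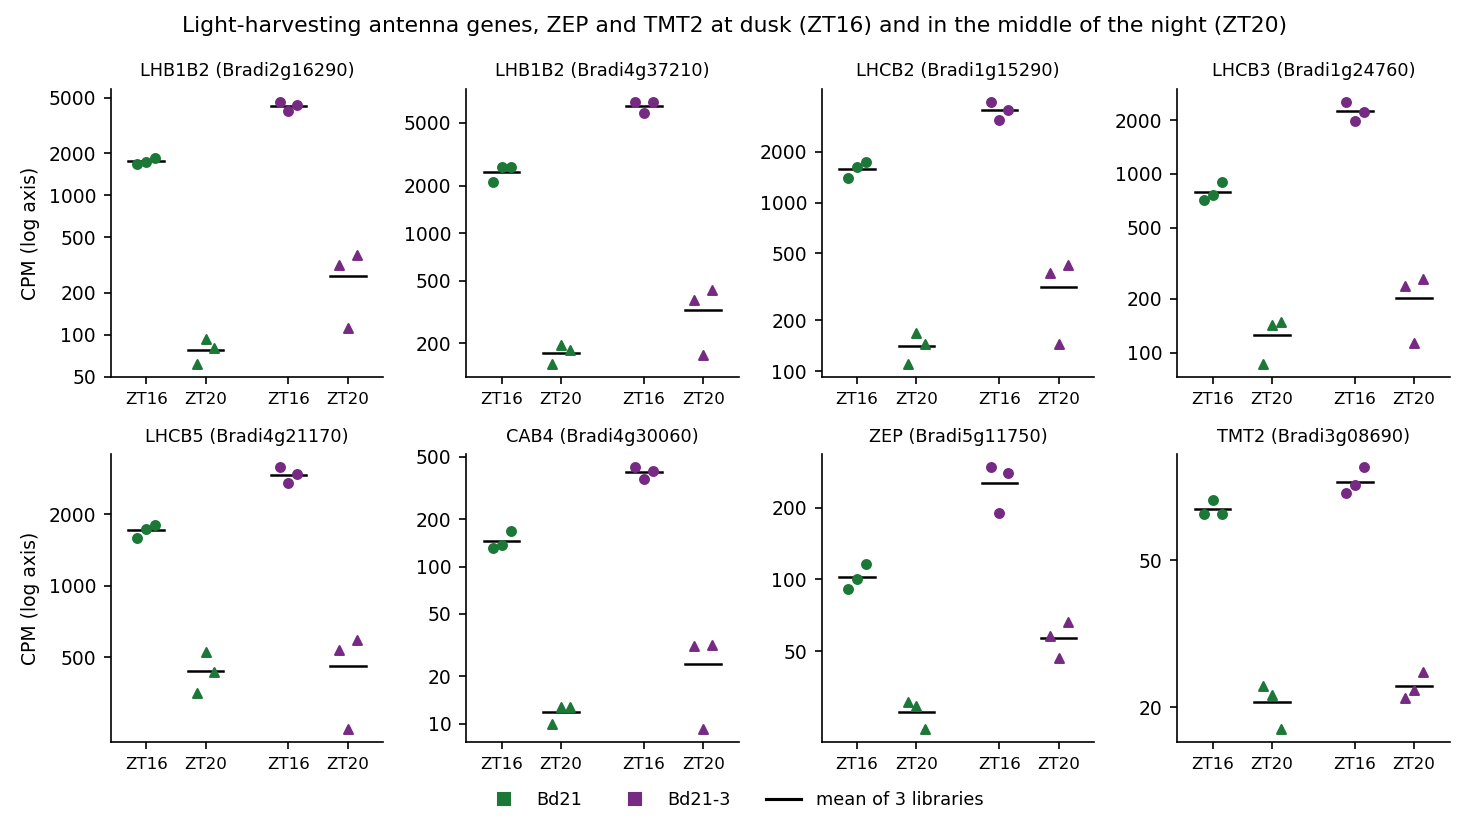
CPM on a log axis in each of the 3 libraries at ZT16 (circles) and ZT20 (triangles) in Bd21 (green) and Bd21-3 (purple) for 6 antenna genes, ZEP and TMT2, with bars at the means. Midnight libraries sit below all dusk libraries of their ecotype in every panel, for genes chosen on these same libraries. Bd21-3 replicate 2 is the lowest midnight library of that ecotype in the 6 antenna panels.

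Zeaxanthin epoxidase (ZEP, Bradi5g11750), which turns zeaxanthin back into violaxanthin in the xanthophyll cycle and feeds abscisic acid synthesis, fell with the antenna. It had 90.9, 101 and 116 CPM at dusk and 30.7, 29.4 and 23.6 CPM at midnight in Bd21. In Bd21-3 the values were 295, 190.0 and 279 CPM at dusk and 57.8, 46.8 and 66.4 CPM at midnight. The groups were separate in both, with log2 differences of -1.84 ± 0.14 (SE, adjusted p = 5.2e-17) and -2.13 ± 0.14 (adjusted p = 2.3e-19). ZEP was the only DEG among 24 carotenoid and xanthophyll genes, whose medians were 0.06 and -0.03.

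A further fallen gene without an Arabidopsis match, Bradi3g42618, had 877, 876 and 1060 CPM at dusk and 148, 216 and 187 CPM at midnight in Bd21. The Bd21-3 libraries had 3134, 2392 and 2858 CPM at dusk and 322, 118 and 295 CPM at midnight. Its groups did not overlap, and the log2 differences were -2.36 (adjusted p = 3.0e-06) and -3.63 (adjusted p = 1.3e-11), the first of which rose to at most 1.3e-04 when NG libraries were left out in turn, with 6 of the 12 removals ending the call.

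The clock genes turned over between dusk and midnight. Of 30 clock genes tested, the morning genes LHY and RVE2 rose in both ecotypes, and the day and evening genes GI, FKF1, LNK1 and both genes with PRR7 as best match fell in both. That is 2 risen and 5 fallen of 30, beside 17 and 18 of the 24109 genes tested, and the medians of the list were -0.36 in Bd21 and -0.23 in Bd21-3.

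LHY (Bradi3g16515), the dawn MYB repressor at the core of the clock, had 28.5, 23.2 and 23.4 CPM at ZT16 and 214, 210 and 190.0 CPM at ZT20 in Bd21. In Bd21-3 it had 97.2, 39.3 and 70.9 CPM at ZT16 and 211, 183 and 198 CPM at ZT20. Midnight levels were alike in the ecotypes while the dusk levels of Bd21-3 were higher and more scattered. The log2 differences were 2.99 ± 0.19 (SE, adjusted p = 1.2e-19) and 1.59 ± 0.19 (adjusted p = 2.9e-09). Without Bd21-3 ZT16 replicate 2, the lowest of its group, the Bd21-3 difference was 1.2, under the size limit. At midnight LHY was still at the foot of its rise, since the mean was 2365 CPM at ZT24 and 3810 CPM at ZT0 in Bd21, and 2496 and 3033 CPM in Bd21-3.

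RVE2 (Bradi1g29680), another dawn MYB factor, had 19.6, 17.3 and 17.9 CPM at dusk and 72.2, 73.3 and 61.4 CPM at midnight in Bd21, and 27.2, 18.5 and 20.5 CPM against 64.6, 67.6 and 64.1 CPM in Bd21-3. Its groups were separate, with log2 differences of 1.86 ± 0.16 (SE, adjusted p = 1.7e-14) and 1.55 ± 0.16 (adjusted p = 9.6e-12), the second of which was 1.43, under the size limit, without Bd21-3 ZT16 replicate 2. RVE1 (Bradi3g51960), a dawn MYB factor tied to auxin synthesis in Arabidopsis, went from 3.78 ± 0.21 to 32.7 ± 6.73 CPM (SD, n = 3) in Bd21, where it was called at 2.80 (adjusted p = 4.2e-08). In Bd21-3 it went from 6.33 ± 1.36 to 30.4 ± 7.18 CPM, and its difference of 2.09 missed the limit on p (adjusted p = 1.9e-05). The other RVE1 copy, Bradi5g19380, had differences of 1.49 and 1.28 and was called in neither.

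GI (Bradi2g05226), which links the clock to light and flowering, had 278, 242 and 272 CPM at ZT16 and 16.3, 14.3 and 12.3 CPM at ZT20 in Bd21. In Bd21-3 it had 311, 264 and 348 CPM at ZT16 and 46.2, 36.2 and 59.8 CPM at ZT20. Dusk levels overlapped between the ecotypes, and the midnight libraries of Bd21-3 were all above those of Bd21. The log2 differences were -4.12 ± 0.23 (SE, adjusted p = 8.5e-23) and -2.69 ± 0.23 (adjusted p = 1.3e-14), and the test of their difference gave 1.43 with an adjusted p of 0.058.

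PRR7, a daytime repressor of morning genes, is the best match of both Bradi1g65910 and Bradi1g16490. The study's text places Bradi1g16490 with PRR3 instead, a pseudo-response regulator that stabilises TOC1 in Arabidopsis, so its symbol is uncertain. Bradi1g65910 had 46.0, 37.7 and 41.0 CPM at dusk and 2.98, 4.30 and 2.57 CPM at midnight in Bd21, and 68.4, 45.0 and 70.4 CPM against 9.47, 7.86 and 8.96 CPM in Bd21-3. Bradi1g16490 had 32.8, 33.2 and 35.4 CPM against 5.35, 4.62 and 3.05 CPM in Bd21, and 31.8, 30.2 and 36.9 CPM against 3.56, 3.42 and 3.82 CPM in Bd21-3. All libraries of both genes were lower at midnight than at dusk. The log2 differences were -3.33 and -2.65 for Bradi1g65910 and -2.73 and -2.88 for Bradi1g16490, with adjusted p from 4.4e-22 to 3.4e-17, and the shared call held without any 1 NG library.

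FKF1 (Bradi4g16630), the blue-light F-box protein that works with GI in timing flowering in Arabidopsis, had 44.4, 35.7 and 42.7 CPM at dusk and 5.87, 9.45 and 6.57 CPM at midnight in Bd21, and 57.3, 43.6 and 59.9 CPM against 14.2, 11.2 and 20 CPM in Bd21-3. LNK1 (Bradi1g60846), a coactivator that works with RVE proteins, had 32.8, 27.6 and 32.1 CPM against 8.86, 6.44 and 3.85 CPM in Bd21, and 78.3, 37.5 and 75.7 CPM against 9.90, 15.1 and 13.8 CPM in Bd21-3. No midnight library of either gene reached a dusk library. FKF1 differed by -2.36 and -1.78 (adjusted p = 6.9e-11 and 1.5e-07) and LNK1 by -2.16 and -2.17 (adjusted p = 2.5e-12 and 1.6e-12). The FKF1 call in Bd21-3 was lost in 4 of the 12 removals, with an adjusted p of at most 2.4e-05.

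Other clock genes moved less or missed a limit. PRR5 (Bradi4g36077) was called lower in Bd21-3, at -2.82 from 15.8 ± 3.24 to 1.42 ± 0.70 CPM, and had a difference of -2.35 in Bd21 from a dusk mean of 6.84 CPM, below the limit of 15 CPM. The other PRR5 copy, Bradi4g24967, had -0.58 and -0.36. LUX (Bradi2g62067), a MYB factor of the evening complex, had its highest NG mean at dusk (99.1 CPM in Bd21, 105 CPM in Bd21-3) and differences of -1.73 (adjusted p = 4.8e-04) and -1.89 (adjusted p = 7.8e-05). TOC1 (Bradi3g48880), the evening pseudo-response regulator, differed by -0.76 (adjusted p = 6.5e-06) and -0.34 (adjusted p = 0.042). LNK2 (Bradi2g13610) had -1.26 and -1.29, and COR27 (Bradi1g72390), a cold- and clock-linked gene, -1.92 and -1.26 from dusk means of 13.9 and 19.0 CPM.

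Among the remaining clock genes, JMJD5 (Bradi3g39950 and Bradi4g33727), a histone demethylase family gene of the evening, had differences of -0.54 and -0.51 and of -0.83 and -0.29. The ELF4-like gene Bradi1g60090 had -0.93 and -1.01, its relatives Bradi4g13227 and Bradi4g29580 between -0.22 and 0.31, and CHE (Bradi5g16270) -0.50 and -0.98. RVE6 (Bradi1g32330 and Bradi3g51757) had 0.35 in both ecotypes and 0.58 and 0.39, and the other COR27 copy, Bradi1g60490, 0.42 and 0.44. ZTL (Bradi1g33610 and Bradi3g04040), LKP2 (Bradi3g04026), LWD1 (Bradi3g44580), the LUX copy Bradi2g54791 and RVE8 (Bradi2g00423) stayed between -0.17 and 0.41, RVE8 with a mean of at most 0.13 CPM at these times.

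**Figure D3:**
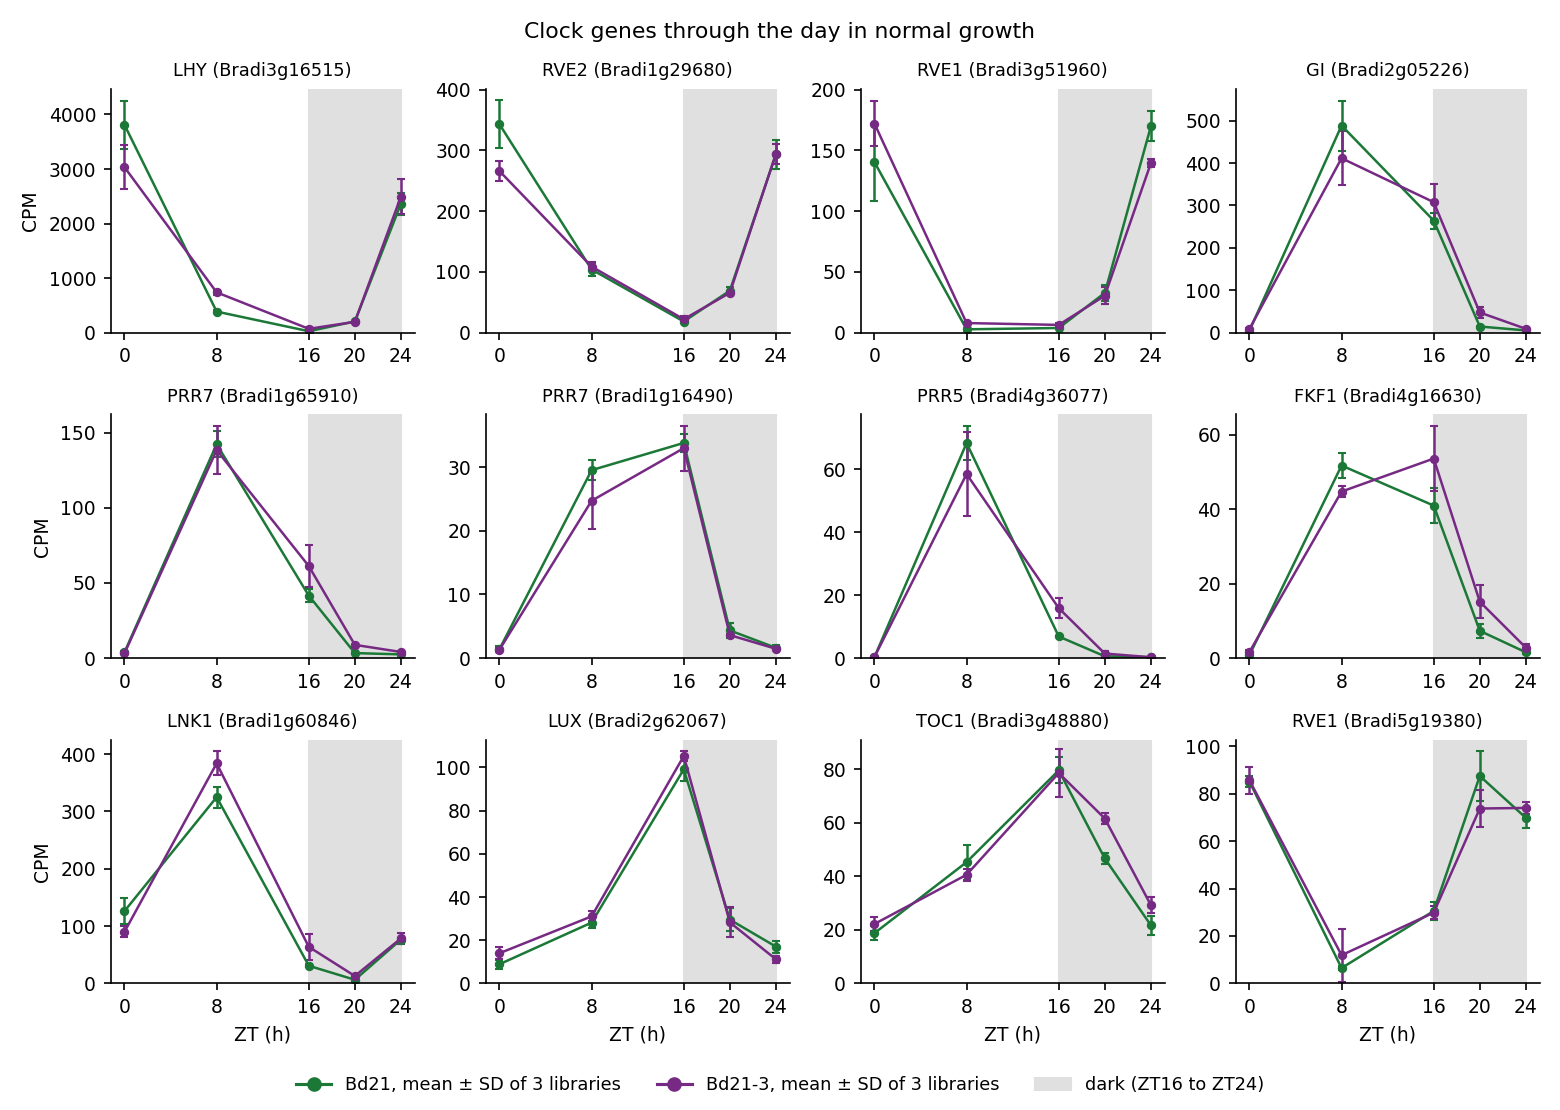
Mean CPM ± SD of 3 libraries under normal growth at ZT0, ZT8, ZT16, ZT20 and ZT24 for 12 clock genes in Bd21 (green) and Bd21-3 (purple), with the dark period shaded. LHY, RVE2 and RVE1 stand higher at ZT20 than at ZT16, GI, FKF1, LNK1 and both genes labelled PRR7 lower, and LUX and TOC1 have their highest mean at ZT16.

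A pair of TPS genes and a SnRK1 subunit gene rose at midnight. TPS8 and TPS6 are class II trehalose phosphate synthase proteins, which carry the synthase fold and are thought to act in signalling more than in making trehalose 6-phosphate. TPS8 (Bradi3g35820) had 40.5, 35.3 and 45.4 CPM at dusk and 189, 175 and 146 CPM at midnight in Bd21, and 35.5, 23.8 and 32.4 CPM against 132, 174 and 125 CPM in Bd21-3. TPS6 (Bradi4g29730) had 28.0, 29.7 and 37.1 CPM against 126, 145 and 123 CPM in Bd21, and 31.0, 25.9 and 21.4 CPM against 123, 93.1 and 113 CPM in Bd21-3. Every midnight library was above every dusk library in both genes. TPS8 rose by 2.04 ± 0.24 and 2.2 ± 0.24 (SE, adjusted p = 1.5e-09 and 7.6e-11) and TPS6 by 2.03 ± 0.20 and 2.04 ± 0.20 (adjusted p = 3.8e-12 and 2.2e-12).

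The family did not move as a block. A further TPS8 copy, Bradi3g53790, rose in Bd21 by 1.89 (adjusted p = 1.1e-07) and had 0.81 (adjusted p = 0.020) in Bd21-3. TPS1 (Bradi2g19640), the catalytic synthase of Arabidopsis, had -0.85 (adjusted p = 1.5e-04) and -0.61 (adjusted p = 5.9e-03), and another TPS6 copy, Bradi1g69420, had -0.94 and -1.2. Of 24 genes for sucrose and trehalose phosphate, 2 rose in both ecotypes and none fell, and the medians were 0.32 and 0.25.

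AKINBETA1 (Bradi2g21420) codes for a beta subunit of SnRK1, the kinase that is active when sugar is short. Its values were 13.8, 8.97 and 16.5 CPM at dusk and 47.2, 58.1 and 41.5 CPM at midnight in Bd21. In Bd21-3 they were 10.7, 11.4 and 8.35 CPM at dusk and 38.6, 38.7 and 42.8 CPM at midnight. The groups were separate, with log2 differences of 1.85 ± 0.22 (SE, adjusted p = 3.2e-09) and 1.89 ± 0.22 (adjusted p = 1.1e-09). It was the only DEG among 18 tested genes of dark and sugar starvation, whose medians were 0.66 and 0.35. A reading added after seeing the data took an adjusted p under 0.05 in both ecotypes, a mean of 15 CPM and no limit on size. By these limits 6 of the 18 were higher and none lower, where 3.47% of all genes tested were higher and 0.788% lower. They were BZIP63 (Bradi1g05480, 1.17 and 0.93), a bZIP factor downstream of SnRK1, the branched-chain amino acid breakdown genes MCCA (1.22 and 1.14), IVD (0.69 and 0.51) and DIN4 (0.63 and 0.87), and the other AKINBETA1 copy, Bradi1g64040 (0.90 and 0.73), beside Bradi2g21420. Another BZIP63 copy, Bradi4g02570, had -1.73 (adjusted p = 3.1e-05) in Bd21, from a dusk mean of 5.61 CPM, and -0.42 (adjusted p = 0.34) in Bd21-3. Other DIN genes of the list did not pass in both ecotypes. DIN6 had 0.30 and 0.48 (Bradi4g45010, adjusted p = 0.74 and 0.33) and -0.03 and -0.57 (Bradi1g65540). DIN10 had 1.21 and -0.04, and DIN3 had 0.88 (adjusted p = 0.076) and 1.40 (adjusted p = 7.3e-04). DIN1 reached a mean of at most 1.17 CPM at these times.

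TMT2 (Bradi3g08690), a transporter that loads sugars into the vacuole, went the other way. It had 66.8, 72.5 and 66.7 CPM at dusk and 22.9, 21.6 and 17.5 CPM at midnight in Bd21, and 75.8, 79.5 and 89 CPM against 21.2, 22.3 and 24.9 CPM in Bd21-3. The log2 differences were -1.69 ± 0.18 (SE, adjusted p = 5.0e-11) and -1.79 ± 0.18 (adjusted p = 4.7e-12), the only DEG among 30 sugar transporters, whose medians were 0.04 and -0.24. Starch genes had no DEG. By an adjusted p under 0.05 with a mean of 15 CPM and no size limit, 4 of 22 starch synthesis genes were lower in both ecotypes. They included the granule-bound starch synthase GBSS1 (-1.12 and -0.90) and both SBE2.2 branching enzymes. Of 27 starch breakdown genes 2 were lower, the cytosolic phosphorylase PHS2 (-1.39 and -1.46) and the maltose exporter MEX1 (-0.42 and -0.84). Of all genes tested 0.788% were lower by these limits.

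Receptor-like kinase and membrane protein genes were among the other risen genes. CRK10 (Bradi1g25552), a cysteine-rich receptor-like kinase, had 2.87, 8.43 and 4.59 CPM at dusk and 44.8, 45.4 and 66.2 CPM at midnight in Bd21. The Bd21-3 libraries had 5.02, 4.91 and 5.61 CPM at dusk and 135, 59.1 and 129 CPM at midnight. It was lifted well clear of its dusk values in both ecotypes, with log2 differences of 3.15 ± 0.44 (SE, adjusted p = 2.9e-07) and 4.04 ± 0.44 (adjusted p = 1.4e-10). In 3 of the 12 removals its adjusted p in Bd21 passed the limit, at most at 3.2e-05. A second gene with this best match, Bradi1g25727, rose by 1.57 and 2.13, and sat at the limits in Bd21 (adjusted p = 4.4e-06), where removals gave at most 1.6e-04 and 11 of the 12 ended the shared call.

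ATMLO1 (Bradi3g46070), of the MLO family of plasma membrane proteins known from barley for powdery mildew susceptibility, had 3.83, 6.29 and 5.06 CPM at dusk and 34.5, 29.6 and 38.2 CPM at midnight in Bd21. In Bd21-3 it had 3.42, 2.76 and 4.31 CPM against 41.8, 29.4 and 42.2 CPM. ITN1 (Bradi2g54340), an ankyrin-repeat membrane protein linked to salt tolerance in Arabidopsis, had 10.2, 8.70 and 9.53 CPM against 56.6, 53.0 and 51.8 CPM in Bd21 and 10.6, 12.3 and 13.1 CPM against 71.2, 73.3 and 66.1 CPM in Bd21-3. Neither gene had a midnight library near a dusk library. ATMLO1 rose by 2.55 and 3.10 (adjusted p = 3.9e-10 and 3.3e-13) and ITN1 by 2.39 and 2.46 (adjusted p = 1.3e-13 and 3.8e-14).

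LHT1 (Bradi3g14150), an importer of amino acids, had 8.02, 7.36 and 6.94 CPM at dusk and 31.9, 28.7 and 43.6 CPM at midnight in Bd21. In Bd21-3 it had 8.56, 8.27 and 9.92 CPM against 75.8, 40.1 and 92.3 CPM. The midnight spread of Bd21-3 was wide, and its lowest value came from the library that stood apart. The rises were 2.06 (adjusted p = 2.4e-07) and 2.75 (adjusted p = 3.3e-11), and 3 of the 12 removals moved the adjusted p in Bd21 past the limit, at most to 2.2e-05.

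MIOX1 (Bradi1g37870), which opens myo-inositol to glucuronate for cell wall sugars, had 8.26, 7.76 and 8.83 CPM at dusk and 39.5, 43.4 and 47.3 CPM at midnight in Bd21, and 3.99, 3.71 and 3.26 CPM against 28.5, 23.0 and 23.6 CPM in Bd21-3. Its replicates were tight and apart, and the fit, which takes the spread from all 30 groups, gave differences of 2.26 and 2.48 with adjusted p of 3.3e-06 and 3.0e-07. In Bd21 that lay close to the limit, and 9 of the 12 removals ended the shared call, with adjusted p of at most 8.9e-05. AtPP2-A13 (Bradi1g77430), of the phloem protein 2 family, had 7.06, 8.03 and 10.8 CPM against 63.3, 71.6 and 64.3 CPM in Bd21 and 10, 7.07 and 9.66 CPM against 59.3, 45.1 and 57.0 CPM in Bd21-3, rises of 2.82 (adjusted p = 3.0e-14) and 2.47 (adjusted p = 3.1e-12).

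**Figure D4:**
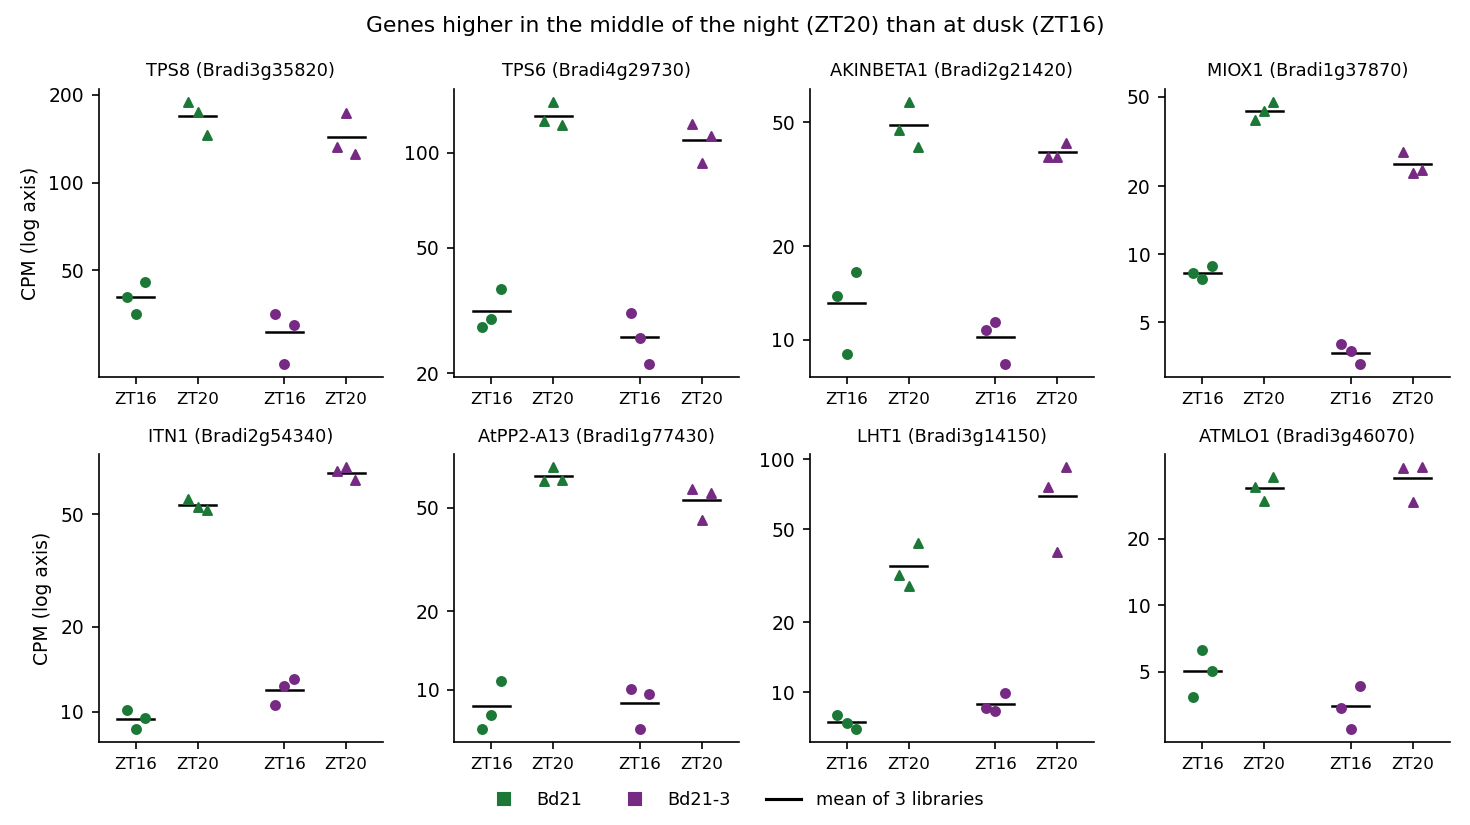
CPM on a log axis in each of the 3 libraries at ZT16 (circles) and ZT20 (triangles) in Bd21 (green) and Bd21-3 (purple) for 8 genes that rose in both ecotypes, with bars at the means. In every panel all midnight libraries lie above all dusk libraries of the same ecotype, for genes chosen on these same libraries.

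The remaining shared genes are named here so that all 35 are accounted for. A leucine-rich repeat kinase gene, Bradi4g14000, rose by 1.93 and 1.95, from 50.0 ± 8.93 to 192 ± 22.1 CPM (SD, n = 3) in Bd21. Bradi5g14870, a leucine-rich repeat gene, rose by 1.81 and 2.04, Bradi3g05767, an FGGY carbohydrate kinase gene, by 1.66 and 1.71, and Bradi3g05760, a calmodulin-binding protein gene, by 1.52 and 1.59. Without Bd21 ZT16 replicate 2 the Bd21 differences of Bradi3g05767 and Bradi3g05760 were 1.49 and 1.40, under the size limit, and removal of Bd21 ZT20 replicate 2 also ended the call of Bradi3g05760. Bradi4g04996, which has no Arabidopsis match, went from 5.99, 2.81 and 4.24 CPM to 27.1, 35.1 and 23.3 CPM in Bd21 and from 6.28, 5.39 and 4.96 CPM to 26.6, 19.7 and 21 CPM in Bd21-3, rises of 2.49 (adjusted p = 3.0e-14) and 1.84 (adjusted p = 8.0e-10).

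Among the fallen genes, Bradi2g55297 of the tetratricopeptide repeat family had 46.1, 78.7 and 59.0 CPM at dusk and 2.54, 4.30 and 5.61 CPM at midnight in Bd21, and 117, 133 and 149 CPM against 8.90, 4.67 and 8.52 CPM in Bd21-3. Its differences were -3.61 (adjusted p = 2.2e-06) and -4.04 (adjusted p = 1.2e-07), and 8 of the 12 removals ended the shared call, with adjusted p of at most 1.1e-04. The gene Bradi1g78710 fell by -2.91 and -2.55 and Bradi5g13710 by -1.67 and -2.24, and neither has a symbol. CYP76C1 (Bradi3g35980), a cytochrome P450, fell by -2.27 and -3.50, from 46.8 ± 7.39 to 9.01 ± 2.31 CPM in Bd21, and 4 of the 12 removals took its adjusted p in Bd21 past the limit, at most to 3.6e-05.

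Calls in 1 ecotype alone mostly shared their direction with the other ecotype. There were 14 risen and 3 fallen genes called only in Bd21 and 24 risen and 28 fallen called only in Bd21-3. The other ecotype had the same sign in all 14, 3 and 24, and in 27 of the 28, and had an adjusted p under 0.05 with that sign in 13, 3, 20 and 25. The test of the ecotype difference itself called no gene in limma or in edgeR (0%), while 1110 genes (4.6%) had an unadjusted p under 0.05. At an adjusted p under 0.05 with the limits on size and level kept, 4 genes had a lower change in Bd21-3 (0.0166%) and none a higher one. Both CAB1 copies, antenna genes of photosystem II, were among them. CAB1 (Bradi1g12130) went from 50.7 ± 4.45 to 1.79 ± 1.00 CPM in Bd21-3 (-4.28) and from 3.25 ± 0.46 to 0.70 ± 0.06 CPM in Bd21 (-1.32). CAB1 (Bradi2g16271) went from 15.4 ± 3.14 to 0.25 ± 0.44 CPM in Bd21-3 (-3.74) and from 2.77 ± 0.55 to 0.065 ± 0.057 CPM in Bd21 (-1.81). In Bd21 Bradi2g16271 was near the floor, where log2(CPM + 1) understates a fall. Its ecotype difference therefore does not show an unlike fold change. ATGLK1 (Bradi1g43710), an activator of photosynthesis genes, fell in Bd21-3 from 29.5 ± 3.96 to 9.07 ± 2.04 CPM (-1.61) and had 22.5 ± 5.95 and 30.5 ± 5.99 CPM in Bd21 (0.44), with an adjusted p of 0.0030 for the difference. The fourth, Bradi3g13670, had -3.25 and -0.29 (adjusted p = 0.0013). LHY had a difference of -1.40 (adjusted p = 0.014), below the size limit.

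Below the size limit lay many small changes. By an adjusted p under 0.05 with a mean of 15 CPM and no limit on size, 836 genes were higher (3.47%) and 190 lower (0.788%) at midnight in both ecotypes, with median log2 differences of 0.62 and 0.66 for the higher and -0.88 and -1.01 for the lower. The shares within 1 ecotype were 4.43% higher and 1.06% lower in Bd21 and 8.43% higher and 5.14% lower in Bd21-3. With the limits on size and level kept, an adjusted p of 0.05 gave 36 higher genes (0.149%) and 37 lower genes (0.153%) in both ecotypes. The smaller of both differences was under 1 in 742 of the higher genes (88.8%) and 111 of the lower (58.4%). Without both libraries that stood apart these counts were 495 and 124, and Bd21-3 alone went from 2033 higher and 1240 lower to 1155 and 412.

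Light signalling genes had no DEG among 26 tested, and their medians were -0.06 and -0.26. The blue-light receptor CRY2 (Bradi3g49204) had 0.98 (adjusted p = 8.1e-05) and 1.38 (adjusted p = 3.9e-08), the light-signalling repressor COP1 (Bradi3g57667) 0.57 and 0.68, the dark-acting factor PIF3 (Bradi2g11100) -0.38 and -0.80, and the light-acting factor HY5 (Bradi3g07540) -0.71 and -0.79. These 4 are the list's members with an adjusted p under 0.05 in both ecotypes. Among 27 B-box and CCT-domain genes, with medians of -0.24 and -0.34, Bradi3g56490 had 1.1 and 1.21 and Bradi2g14220 had -1.47 and -1.35, and 13 flowering time genes had medians of -0.06 and 0.00.

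The other lists held no gene called in both ecotypes. Medians in Bd21 and Bd21-3 were -0.05 and -0.40 for 21 Calvin cycle genes, -0.01 and -0.44 for 13 genes of photorespiration and catalases, -0.05 and -0.32 for 26 genes of chlorophyll synthesis, -0.21 and -0.19 for starch synthesis and -0.13 and -0.19 for starch breakdown. They were 0.04 and -0.24 for 25 genes of nitrogen uptake and assimilation, -0.16 and -0.51 for 47 expansins and xyloglucan endotransglucosylases, 0.02 and 0.03 for 26 cellulose synthases and -0.01 and -0.49 for 24 aquaporins. Among the hormone lists they were -0.05 and -0.16 for 78 auxin-responsive genes, -0.26 and -0.28 for 20 gibberellin genes, -0.12 and -0.22 for 23 abscisic acid genes and 0.11 and -0.09 for 34 jasmonate genes. A SAUR auxin-responsive gene, Bradi3g30660, and ABF4 (Bradi4g32090), an abscisic acid response factor, were called lower in Bd21-3 (-3.72 and -1.64) and had -1.95 and -0.81 in Bd21. Medians were -0.19 and -0.56 for 48 phenylpropanoid and lignin genes, 0.00 and -0.14 for 17 cold response genes, -0.22 and -0.24 for 91 heat shock proteins and factors, -0.37 and -0.64 for 39 histones, -0.06 and -0.04 for 44 cell cycle genes and -0.07 and -0.04 for 290 ribosomal protein genes. The marker lists stood at -0.17 and -0.31 for guard cells, 0.06 and -0.51 for xylem and phloem, -0.09 and -0.19 for shoot meristem, -0.26 and -0.84 for green leaf (with both CAB1 copies, also in the antenna list, called in Bd21-3), -0.94 and -0.01 for plastid-encoded matches and -0.90 and -0.24 for 5 mitochondrion-encoded matches. Several small medians moved by over 1.5 times without both libraries that stood apart. In Bd21-3 they became -0.06 for sugar transporters, -0.26 for the Calvin cycle, -0.10 for nitrogen, -0.33 for expansins and xyloglucan endotransglucosylases, -0.28 for aquaporins, -0.07 for auxin, -0.08 for cold response, -0.41 for histones, -0.30 for xylem and phloem, -0.09 for shoot meristem, -0.14 for mitochondrion-encoded matches, -0.11 for flowering time and 0.01 for jasmonate genes. In Bd21 they became -0.35 for photosystems and antenna as a whole (from -0.64), -0.06 for abscisic acid, -0.10 for aquaporins and -0.11 for guard cells, and the other lists whose medians moved that far lay within 0.1 of 0 both with and without these libraries. In the same fit the green leaf median of Bd21-3 was -0.60 and the plastid and mitochondrial medians of Bd21 were 0.12 and 0.01.

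Through the NG day the shared genes took opposite phases. Of the 17 risen genes, 16 in Bd21 and 15 in Bd21-3 had their lowest mean of the 5 times at dusk. Their zenith fell at ZT0, ZT20 or ZT24, in 7, 4 and 6 genes in Bd21 and in 3, 9 and 5 in Bd21-3. Of the 18 fallen genes, 16 in Bd21 and 15 in Bd21-3 had their zenith at ZT8 and the others at ZT16, so most were already past their highest mean at dusk. Their lowest mean came at ZT20 in 9 genes in each ecotype. Since the genes were chosen on ZT16 and ZT20, this course is a description. By position, 11, 5, 9, 7 and 3 of the shared genes lie on chromosomes 1 to 5 (31.4, 14.3, 25.7, 20 and 8.57%), beside 29.1, 22.7, 22.4, 16.3 and 9.54% of all genes tested, and 33 of the 35 have an Arabidopsis match.

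Plants at low light were separate plants. The study's methods put the plants of a collection time in the same tank, which is read here as 1 tank per time. On that reading tank and time cannot be told apart there. In LL 59 genes rose and 25 fell in Bd21 (0.245% and 0.104%) and 17 rose and 28 fell in Bd21-3 (0.0705% and 0.116%), which is 0.348% and 0.187% in either direction, and both ecotypes shared 14 and 18 (0.0581% and 0.0747%). All 35 NG genes had the same sign in LL in both ecotypes, and 3 of the risen and 12 of the fallen were also called in both. Median differences of the risen genes were 1.42 in Bd21 and 0.91 in Bd21-3, against 2.04 and 2.04 in NG, and those of the fallen genes -2.11 and -2.2 against -2.70 and -2.83. As the genes had been chosen for a large change in NG, smaller values in LL are a description. By ecotype, the LL change differed from the NG change (limma, adjusted p under 0.05) in 145 genes in Bd21 and 1057 in Bd21-3. These included 2 of the risen shared genes in Bd21 and 10 in Bd21-3, and 1 and 4 of the fallen. No gene passed the test of an LL change different from the NG change in both ecotypes, in limma or in edgeR (0%), where 735 genes (3.05%) had an unadjusted p under 0.05 in the same direction in both. At an adjusted p under 0.05, 2 genes had a higher and 5 a lower change in LL (0.00830% and 0.0207%). LHT1 and ATMLO1 were among the 5, with LL differences of 0.02 and 0.75 for LHT1 and 0.79 and 1.5 for ATMLO1, beside 2.06 and 2.75 and 2.55 and 3.10 in NG. The others were Bradi1g14983, anac021 (Bradi3g17287) and Bradi4g13619. Bradi1g14983 had -0.46 and -1.25 in LL beside 1.16 and 2.06 in NG. Its difference met the main limits in Bd21-3 alone (limma, adjusted p = 4.0e-11). The 2 higher in LL were ATMGL (Bradi3g30860), for methionine gamma-lyase, with 1.57 and 1.58 in LL and -1.1 and -0.96 in NG, and Bradi4g11580 of the tyrosine transaminase family.

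Under submergence 28 genes rose and 147 fell in Bd21 (0.116% and 0.610%) and 24 rose and 58 fell in Bd21-3 (0.0995% and 0.241%), which is 0.726% and 0.340% in either direction, and both ecotypes shared 6 and 36 (0.0249% and 0.149%). Of the 6 antenna genes shared in NG, 5 were called lower in S in both ecotypes, with -3.23 and -2.82 for LHB1B2 (Bradi2g16290), and CAB4 (Bradi4g30060) in Bd21 alone (-2.36 and -2.0). The CAB1 gene Bradi1g12130 had -1.30 and -0.20 in S. Its dusk means in S were 5.7 ± 8.2 and 2.8 ± 1.9 CPM (SD, n = 3), and its midnight means 0.66 and 2.2 CPM. These lay under the limit of 15 CPM, so no call was possible. In all, 6 of the 18 fallen NG genes were called in S in both ecotypes. Of the 17 risen genes ITN1 alone was called in both (2.03 and 1.68). S plants also had less light than NG plants, so submergence and light cannot be told apart when S is set against NG. The S change differed from the NG change in both ecotypes in 6 genes that were higher (0.0249%) and 2 that were lower (0.00830%), and at an adjusted p of 0.05 in 15 (0.0622%) and 40 (0.166%). FKF1 went from 36.0 ± 8.39 to 167 ± 39.0 CPM (SD, n = 3) in submerged Bd21 and from 43.6 ± 3.49 to 178 ± 20 CPM in submerged Bd21-3, differences of 2.18 and 2.00 where NG had -2.36 and -1.78. GI had 163 ± 46.9 and 256 ± 63.0 CPM in submerged Bd21 (0.66) and 149 ± 19.7 and 210 ± 53.3 CPM in Bd21-3 (0.47), where NG had -4.12 and -2.69. LHY stood at 597 ± 70.0 CPM at dusk and 261 ± 60.6 CPM at midnight in submerged Bd21 (-1.21), against 25.0 and 205 CPM in NG.

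**Figure D5:**
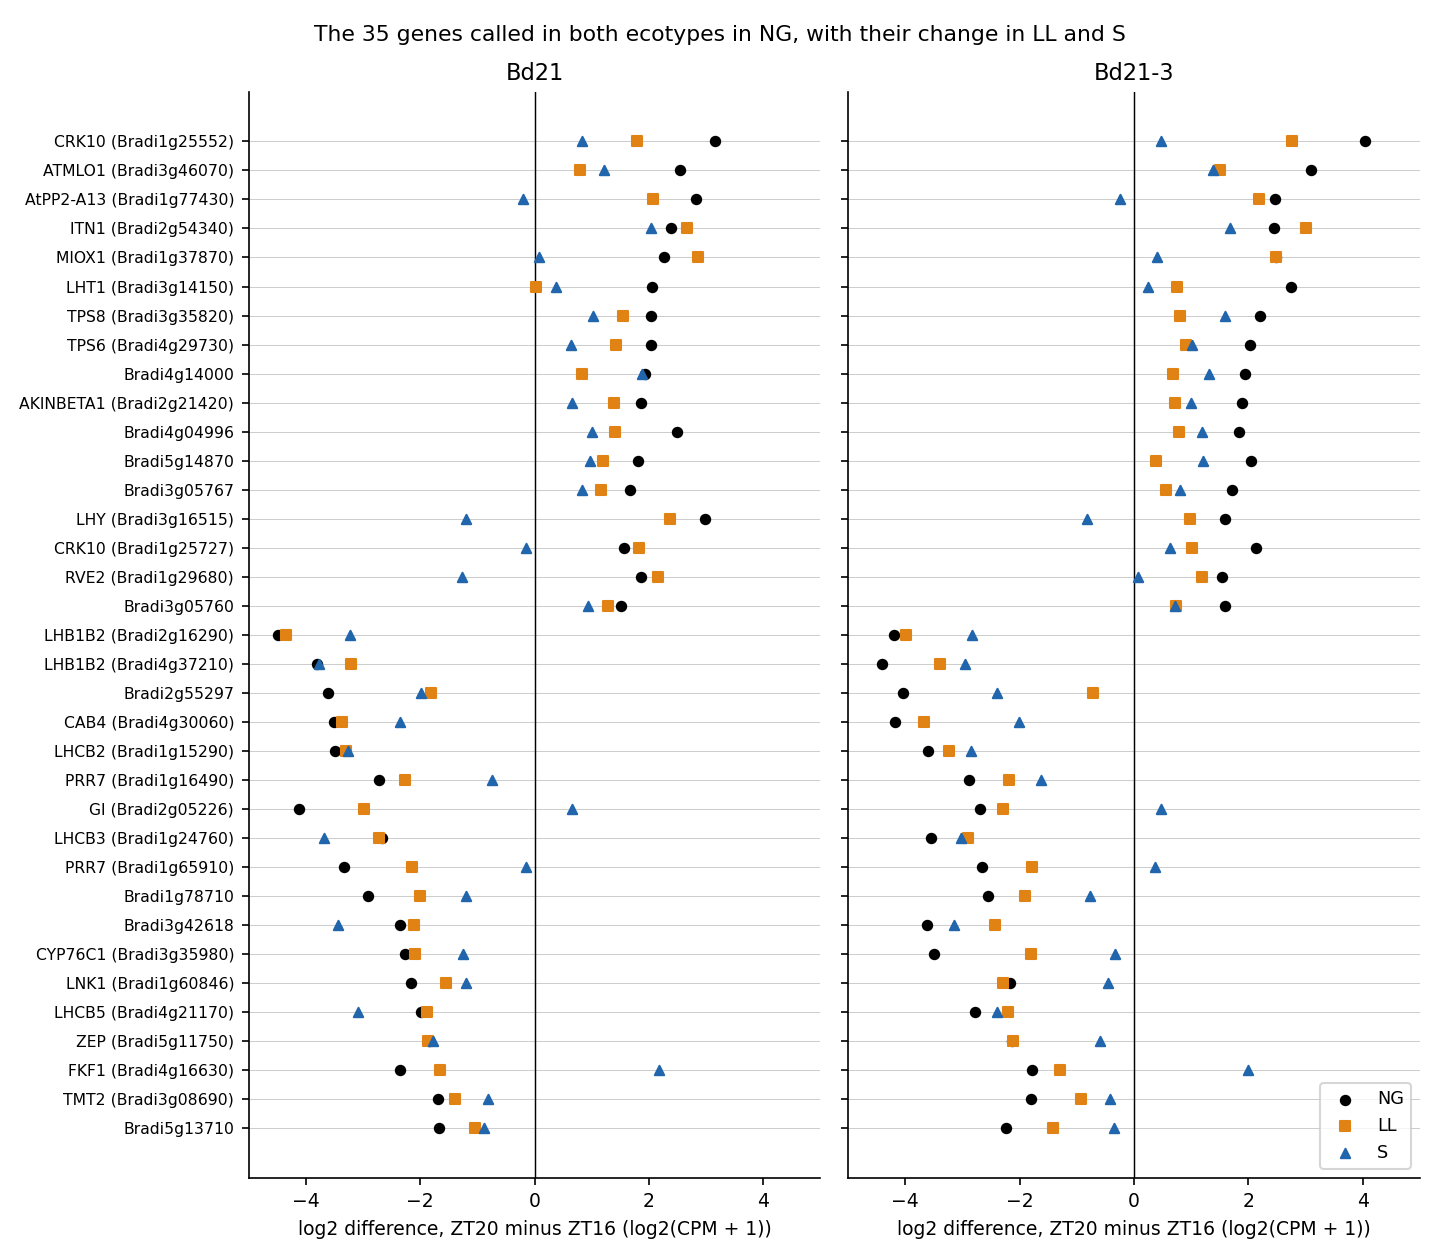
Log2 difference between ZT20 and ZT16, on the log2(CPM + 1) scale, of the 35 genes called in both ecotypes in NG, in NG (black circles), LL (orange squares) and S (blue triangles), for Bd21 (left) and Bd21-3 (right). LL points lie on the NG side of 0 for all 35 genes, and S points of FKF1 and GI lie on the opposite side in both ecotypes, as do those of LHY and AtPP2-A13.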

How the data were processed

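RNA was sequenced from 89 pools of plants in 30 groups (2 ecotypes, 3 treatments, 5 times), with 3 libraries per group except 1 group of 2. Libraries of a group were separate pools, and no source used here says whether they came from separate sowings, so p-values measure the spread between these pools. Per the labels and the study's methods, reads of both ecotypes were aligned to the Bd21 genome with HISAT2 2.1.0, SAMtools 1.12 was used, counting was done with HTSeq, and values were scaled to CPM with edgeR. The deposited values are therefore a scaled signal: sums were 936344 to 1132261 in the 12 NG libraries rather than a constant, a plain CPM unit had been assumed when the tests were chosen, and the same log-scale test was kept. Whole reads could be recovered from 100% of the values within 0.001, and edgeR on those reads was an alternative. The authors' own fold change and adjusted p columns were not used. Since reads of Bd21-3 were aligned to Bd21, a level set between ecotypes can include an alignment difference.

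limma 3.58.1 (R 4.3.3) with a variance trend was fitted to log2(CPM + 1) of all 89 libraries, 1 term per group, 59 residual degrees of freedom, and 24109 of the 24467 listed genes entered it, those that reached 1 CPM in at least 3 libraries. The test was checked on simulated data. Tables were made with Python 3.11.15, pandas 2.3.3 and numpy 2.4.6, and the alternative count test with edgeR 4.0.16. Of the gene IDs, 19689 had an Arabidopsis match and 8480 a symbol, and none matched the RefSeq gene table, so no coordinates or sequences are given. Chromosomes were read from the gene IDs.

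The members and gene lists were chosen with earlier results of these data known. Named genes were the 10 largest rises and falls called in both ecotypes by the smaller difference, plus 2 per direction without an Arabidopsis match, up to 4 members per list called in both ecotypes or 2 called in 1, every clock gene, and the 3 largest called differences per direction between ecotypes or treatments. The shared genes outside that rule (Bradi5g14870, Bradi3g05767, Bradi3g05760, Bradi5g13710, the CRK10 gene Bradi1g25727, LHCB5 and CYP76C1) were named after their values were seen. So were the list members that passed an adjusted p under 0.05 with the 15 CPM limit but no size limit. The genes of the ecotype and LL differences at an adjusted p under 0.05 were also named then. Alternatives were other pseudocounts, filters, scalings and limits, no variance trend, edgeR, a block on the replicate number, a fit of the compared groups alone, and leaving out each library. The reading with no limit on size and the fit without both libraries that stood apart were added after seeing the data.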

Additional observations from a re-analysis of the deposited data

Results flagged for a closer look

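The dusk to midnight change differed between submergence and normal growth in both ecotypes, by the test of the difference itself, in 8 genes. The S change lay above the NG change by 3.18 in Bd21 and 3.02 in Bd21-3 for PRR7 (Bradi1g65910), which had 98.2 and 88.2 CPM at ZT16 and ZT20 in submerged Bd21 and 86.3 and 114 CPM in submerged Bd21-3. For COR27 (Bradi1g72390) it lay above by 4.98 and 3.81, with 8.25 and 76.5 CPM in submerged Bd21 and 7.90 and 50.8 CPM in submerged Bd21-3. GI differed by 4.78 and 3.16 and FKF1 by 4.54 and 3.78. PRR5 (Bradi4g24967) differed by 2.35 and 1.82, with 93.7 and 323 CPM in submerged Bd21 and 169 and 470.4 CPM in submerged Bd21-3. ATPAO4 (Bradi5g25730), a polyamine oxidase gene, differed by 2.00 and 2.32, with 312.5 and 438 CPM in submerged Bd21 and 298 and 544 CPM in submerged Bd21-3. The S change lay below the NG change by -3.02 and -2.72 for AtPP2-A13 and by -4.20 and -2.42 for LHY. AtPP2-A13 had 47.6 and 37.1 CPM in submerged Bd21 and 52.2 and 43.6 CPM in submerged Bd21-3, and LHY had 447 and 255 CPM in submerged Bd21-3. The largest adjusted p of these 16 differences was 8.4e-08 (limma). These S plants had been under water since the evening before and had less light than NG plants. Submergence and light therefore cannot be told apart when S is set against NG. LL plants had the light of S plants. In LL the changes in Bd21 and Bd21-3 were -2.14 and -1.78 for PRR7 and -0.48 and -0.54 for COR27. GI changed by -2.99 and -2.30 in LL, FKF1 by -1.66 and -1.29, PRR5 by 0.22 and -0.04 and ATPAO4 by -1.12 and -0.42. AtPP2-A13 changed by 2.08 and 2.19 and LHY by 2.36 and 0.98. The S change was not tested against the LL change. On the reading that each time had its own tank, tank and time cannot be told apart either.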

How the results depend on the processing

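All 35 shared genes kept their sign in every alternative. All 35 stayed called with a 15 CPM filter, no filter or median of ratios scaling. A size limit of 1, an adjusted p of 0.05 and no CPM limit only loosen the limits on the main fit, so no call could be lost there. Other settings kept 28 (edgeR), 29 (pseudocount 5), 32 (pseudocount 0.25 and no trend), 33 (quantile normalization and block) and 25 (both libraries that stood apart left out). With a size limit of 1, rises numbered 77 in Bd21, 99 in Bd21-3 and 43 in both, and the S difference had 6 lower genes. At an adjusted p of 0.05 there were 63 higher and 42 lower genes in Bd21, 67 higher and 237 lower in Bd21-3, 36 and 37 shared, 2 and 5 for LL against NG, 15 and 40 for S against NG, and 4 lower for the ecotypes. With no size limit as well Bd21 had 1067 higher and 256 lower genes, Bd21-3 2033 higher and 1240 lower, with 836 and 190 shared. Without both libraries that stood apart, rises in Bd21 numbered 20 and falls in Bd21-3 28. With no CPM limit, there were 34 falls in Bd21, 72 in Bd21-3 and 29 shared. Pseudocount 5 gave 26 rises in Bd21-3 and 1 lower gene for the ecotypes, and quantile normalization 7 lower genes for S.

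A fit of the compared groups alone, with 4 residual degrees of freedom, called 0 genes in Bd21, Bd21-3, both, and S against NG, in either direction. Its lowest adjusted p were 1.6e-04 in Bd21 and 3.3e-04 in Bd21-3, 5675 and 9913 genes had an unadjusted p under 0.05, 1627 and 6392 an adjusted p under 0.05, and all 35 shared genes were among the latter in both ecotypes. The calls reported take the spread from all 30 groups and rest on that choice.

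Leaving out 1 library of its own compared groups gave Bd21 19 to 27 rises and 14 to 17 falls. Bd21-3 in the same way had 26 to 33 rises and 28 to 40 falls. Over removals from either ecotype the shared counts were 12 to 17 and 13 to 19, so they can exceed the range of 1 ecotype. The ranges were 0 to 0 for the ecotype and LL differences, and 6 to 7 and 2 to 3 for S against NG. Same-numbered libraries did not pair as a rule. For Bd21, r of deviations was 0.37, 0.016 and 0.040, against -0.35 to 0.25 between different numbers, so the pair numbered 1 had the highest r. For Bd21-3 it was -0.15, -0.30 and -0.18, against -0.16 to 0.29 between different numbers. The replicate block gave 29 rises and 21 falls in Bd21, 41 rises and 45 falls in Bd21-3, with 16 and 18 shared.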
